A study of Homo sapiens with 8 samples.

Results

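The broad KDM2A peaks were the 6235 regions of at least 600 bp in the KDM2A peak list of control neural progenitor cells. They were chosen by their measured width, on chromosomes 1 to 22, leaving out the stretches around the centromeres of chromosomes 4, 5, 11 and 14 and the short arm of chromosome 21. The whole list held 504724 peaks, of which 6687 were at least 600 bp wide on any sequence. On the same chromosome parts 466643 peaks were narrower than 600 bp, so the broad peaks made up 1.32% of the peaks there. Their summed length was 4.44 Mb, beside 111.5 Mb for the narrower peaks.

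The cells were neural progenitors made from the human embryonic stem cell line H9, which is an established line. As stem cells they had received a lentivirus, were selected with puromycin, and were then induced to neural progenitors. The control group is labelled NC, and the other 2 groups carried the KDM2A hairpins sh1 and sh4. The submitters picked these as the most effective of 5 sequences. Chromatin immunoprecipitation (ChIP) with sequencing was done for KDM2A in NC cells and for dimethylated lysine 36 of histone H3 (H3K36me2) in NC, sh1 and sh4 cells. The labels do not say what the control virus carried, and KDM2A itself was mapped in NC cells alone, so these lists hold no measure of how far either hairpin lowered it.

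KDM2A is an enzyme that removes the first and second methyl groups from H3K36. It carries a CXXC zinc finger, a fold that binds DNA at CpG dinucleotides free of methylation, and it is known to gather at CpG islands, the CpG-rich stretches that cover the starts of many genes. H3K36me2 is laid down by the NSD enzymes and ASH1L, and it typically covers long stretches of gene bodies and intergenic chromatin and is low at active gene starts.

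Each of the 4 ChIP groups was 1 library, so a replicate spread and a test between groups could not be had. All intervals are 95% intervals of counting error over peaks, exact binomial (Clopper-Pearson) for a share and log-normal for a ratio. Peaks of 1 library, some of them close neighbours, are not independent samples, so variation between cultures is not in these intervals. The depth of the libraries is unknown from the lists, and the 4 input libraries were not analysed here.

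The starts of 4 genes under broad peaks show the DNA that the results turn on. The first 3 belong to the widest broad peaks that hold a whole RefSeq promoter window at the outer start of a gene. The last, chosen after its values were seen, is the widest such peak over a start poor in CpG. The 250 bases before the start are given 5′ to 3′ on the strand of the gene, from RefSeq on GRCh38.p14, and capitals mark each CG.
ZSCAN18: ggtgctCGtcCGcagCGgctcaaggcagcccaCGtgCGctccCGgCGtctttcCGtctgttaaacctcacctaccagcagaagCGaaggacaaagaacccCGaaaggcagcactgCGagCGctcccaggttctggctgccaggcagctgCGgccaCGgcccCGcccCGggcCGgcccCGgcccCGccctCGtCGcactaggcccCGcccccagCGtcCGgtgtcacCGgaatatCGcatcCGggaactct
ITGB1: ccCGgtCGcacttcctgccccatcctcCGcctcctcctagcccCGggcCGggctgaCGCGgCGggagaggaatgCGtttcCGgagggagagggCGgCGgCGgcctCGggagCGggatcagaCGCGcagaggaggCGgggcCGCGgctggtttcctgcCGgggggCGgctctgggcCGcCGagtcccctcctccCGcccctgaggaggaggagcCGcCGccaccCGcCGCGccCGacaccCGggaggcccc
RNPEP: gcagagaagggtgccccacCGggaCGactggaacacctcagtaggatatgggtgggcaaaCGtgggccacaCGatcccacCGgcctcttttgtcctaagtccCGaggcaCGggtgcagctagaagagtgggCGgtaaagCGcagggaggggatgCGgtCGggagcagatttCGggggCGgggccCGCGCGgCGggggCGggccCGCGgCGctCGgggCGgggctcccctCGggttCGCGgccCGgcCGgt
IZUMO1R: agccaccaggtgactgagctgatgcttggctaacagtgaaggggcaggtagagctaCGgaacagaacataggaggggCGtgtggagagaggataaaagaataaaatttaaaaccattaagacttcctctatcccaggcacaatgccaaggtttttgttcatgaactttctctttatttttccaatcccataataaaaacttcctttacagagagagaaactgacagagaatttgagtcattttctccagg

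The ZSCAN18 stretch lies on the minus strand of chromosome 19 at chr19:58118405-58118654 and holds 27 CG. ZSCAN18 encodes a zinc finger protein with a SCAN domain. Its peak, chr19:58117750-58119047, was 1298 bp wide with a fold enrichment of 3.11 over background, a pileup (the height of stacked fragments) of 11 and an FDR of 0.102. ITGB1, on the minus strand of chromosome 10, encodes the integrin beta 1 subunit, which links cells to their matrix. Its stretch, chr10:32958231-32958480, holds 32 CG under a peak of 1225 bp with a fold of 2.59, a pileup of 9 and an FDR of 0.297.

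RNPEP, on the plus strand of chromosome 1, encodes an aminopeptidase. Its stretch, chr1:201982398-201982647, holds 28 CG under a peak of 1149 bp with a fold of 2.08 and a pileup of 11. IZUMO1R, on the plus strand of chromosome 11, encodes the egg receptor for the sperm protein IZUMO1. Its stretch, chr11:94304330-94304579, holds only 2 CG under a peak of 817 bp with a fold of 2.76 and a pileup of 8. None of the 4 peaks had an FDR under 0.05, so each is a weak call on its own, and the CG-poor start had a fold within the range of the other 3.

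Width, fold, pileup and FDR come from the same peak call, so for these the values describe how the peaks were chosen. The broad peaks ran from 600 to 1830 bp with a median of 676 bp. Their median fold was 2.61, beside 2.33 for the narrower peaks, and their median pileup was 9, beside 8. An FDR under 0.05 was reached by 634 broad peaks (10.2%) and by 13402 narrower peaks (2.87%). Most broad peaks were thus shallow and wide, standing about as high as the rest of the list. Across the width limit the values moved little: the 503 peaks of 600 to 609 bp and the 577 peaks of 590 to 599 bp were alike, with 2.59 as the median fold and 9 as the median pileup of either set.

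The broadest of all lay in CEACAM21, a member of the carcinoembryonic antigen family of adhesion proteins, at chr19:41583048-41584877, with a width of 1830 bp and a fold of 3.14. The next were in VSTM2B, COBL and CYP26B1, with widths of 1446, 1426 and 1407 bp. COBL encodes an actin nucleator and CYP26B1 an enzyme that breaks down retinoic acid. The highest fold, 8.48 with a pileup of 27, belonged to a peak of 967 bp in the body of HMCN2, at chr9:130341421-130342387. The 6 peaks of highest fold had folds of 7.26 to 8.48. Of these, 3 lay in the bodies of HMCN2, SLC4A4 and GALNT17, and 3 were intergenic. The intergenic peaks at chr15:20060914-20061628 and chr20:30191607-30192260 lay 234382 and 621494 bp from the nearest protein-coding gene, the third 3786 bp from UBQLN4. Stretches around the centromeres of chromosomes 15 and 20 were not left out. Over all broad peaks fold and width moved together, with a median fold of 2.59 at 600 to 699 bp and 2.81 at 1000 bp or more.

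Broad peaks lay near the ends of protein-coding genes more often than narrower peaks did. With peaks placed by their midpoint, 636 broad peaks, or 10.2% (interval 9.46 to 11), fell within 2 kb of either end of a gene, beside 6.42% of the narrower peaks. The ratio was 1.59 (1.48 to 1.71). In gene bodies away from the ends the shares were 36.9% and 40.5%, a ratio of 0.910 (0.881 to 0.940). Intergenic shares were nearly equal, 52.9% and 53.0%, with a ratio of 0.998 (0.974 to 1.02). Most broad peaks were therefore not at genes' ends: 2300 lay in gene bodies and 3299 between genes. Ends of long noncoding RNA genes that lay at no protein-coding end held 5.76% of the broad and 4.79% of the narrower peaks, a ratio of 1.20 (1.09 to 1.33).

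The surplus lay mostly at the start of the gene. The strand of a gene, and so which end is its start, was known for 15073 of 18937 protein-coding genes (79.6%). Chromosome 8 was not used here, which leaves 5930 broad and 441837 narrower peaks. Within 500 bp of a start lay 173 broad peaks, or 2.92% (2.50 to 3.38), beside 1.13% of the narrower peaks, a ratio of 2.57 (2.21 to 2.99). Within 2 kb the ratio was 1.97 (1.78 to 2.17), with 363 broad peaks or 6.12%, and within 5 kb it was 1.54 (1.43 to 1.66). The excess thus fell off with distance from the start. At the other end of the gene it was small: within 2 kb lay 3.10% of the broad and 2.66% of the narrower peaks, a ratio of 1.17 (1.01 to 1.35), and within 500 bp the ratio was 1.32 (0.996 to 1.74).

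The peaks were also not even about the start. The 250 bp just downstream of the start held 62 broad peaks (1.05%), the highest of any such bin, beside 0.374% of the narrower peaks. Of the 363 broad peaks within 2 kb, 230 had their midpoint downstream, inside the gene, which is 63.4% (58.2 to 68.3). Among narrower peaks 57.1% (56.2 to 57.9) were downstream. At the other end the downstream shares were 47.8% (40.4 to 55.3) and 48.5%, with no side preferred beyond counting error by the broad peaks. The 173 broad peaks within 500 bp of a start had a median width of 691 bp and a median fold of 2.66, and the FDR was under 0.05 for 20 (11.6%). The other broad peaks had a median width of 676 bp and a median fold of 2.61. The share of peaks within 500 bp of a start was 2.58% at 600 to 699 bp and 5.52% (2.56 to 10.2) at 1000 bp or more.

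**Figure D1:**
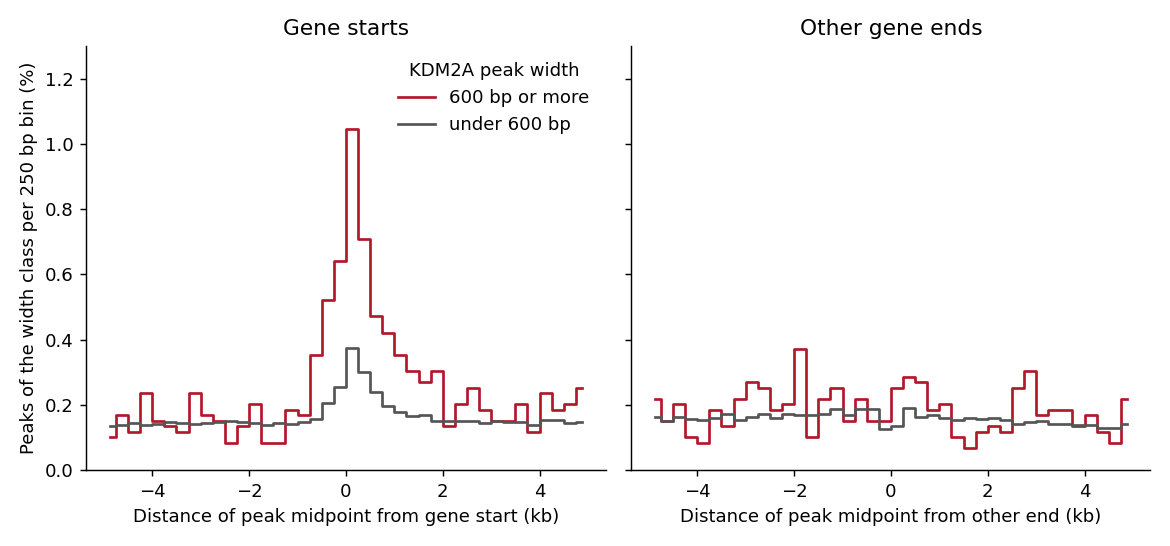
Share of KDM2A peaks of each width class (percent, vertical axis) whose midpoint falls in each 250 bp bin, by distance in kb from the gene start (left) or the other gene end (right), with the gene body to the right of 0 at a start and to the left of 0 at the other end. Peaks of 600 bp or more (red) reach 1.05% in the bin just downstream of the start, beside 0.374% for narrower peaks (grey), and neither class has such a summit at the other end.

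The share at gene ends rose steadily with peak width, with no step at 600 bp. It was 5.91% among peaks of 150 to 199 bp, 8.59% at 500 to 599 bp, 9.61% (8.68 to 10.6) at 600 to 699 bp and 15.9% (10.7 to 22.3) among the 170 peaks of 1000 bp or more. For starts alone, within 2 kb, the share went from 2.81% in the narrowest class to 9.82% (5.72 to 15.5) in the broadest. For the other end it went from 2.52% to 3.68% (1.36 to 7.84). The peaks of 600 bp or more are thus the upper part of a gradual trend in which starts gain much more than other ends. Just inside the limit, at 600 to 609 bp, 10.5% of the peaks were at a gene end, and just outside it, at 590 to 599 bp, 8.67% were.

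**Figure D2:**
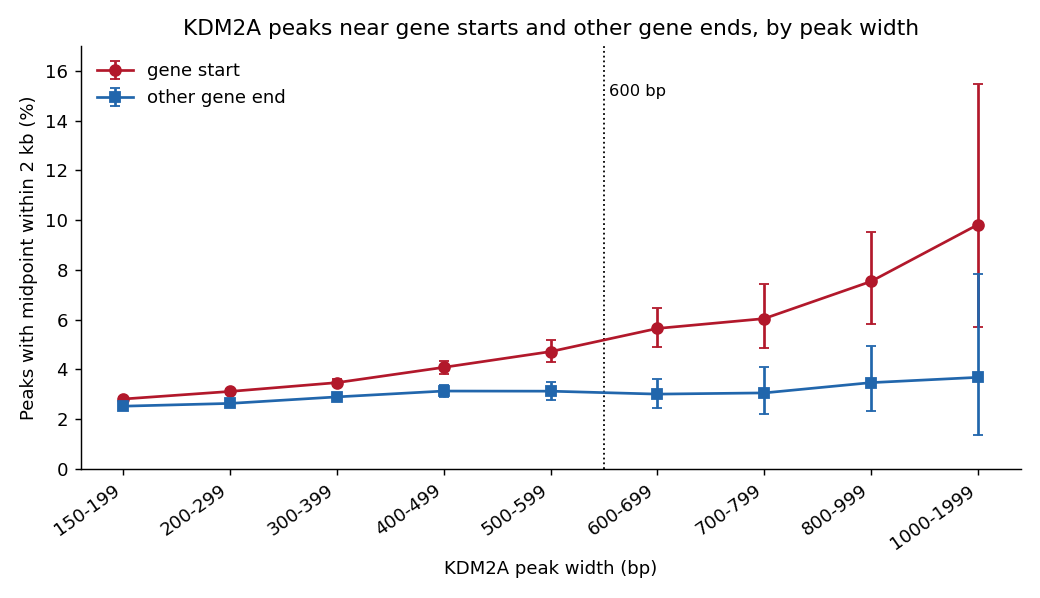
Percent of KDM2A peaks with their midpoint within 2 kb of a gene start (red circles) or of the other gene end (blue squares) for 9 classes of peak width in bp, with 95% binomial intervals. The share at starts climbs from 2.81% to 9.82% across the classes, the share at other ends from 2.52% to 3.68%, and the dotted line marks 600 bp.

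Broad peaks were also more common where genes are dense, which moves with this result. Where a 1 Mb window held at least 10 protein-coding genes lay 34.5% of the broad and 27.9% of the narrower peaks. Chromosome 19, the richest in genes, had the largest broad share, 2.12% of its peaks or 5.14 per Mb, and chromosome 13 the smallest, 0.990% or 1.18 per Mb. Within density classes, which were drawn after the values were seen, the ratio for gene ends was 2.13 (1.73 to 2.62) in windows with under 5 genes, 1.5 (1.29 to 1.74) with 5 to 9 and 1.28 (1.17 to 1.40) with 10 or more. For starts within 2 kb it was 3.03 (2.36 to 3.9), 1.83 (1.5 to 2.24) and 1.53 (1.34 to 1.75). The ratio at gene ends was therefore above 1 in every density class and was largest where genes are sparse. The shares themselves lay furthest apart where genes are dense. With under 5 genes 3.94% of the broad and 1.85% of the narrower peaks were at gene ends. With 5 to 9 these were 8.71% and 5.81%, and with 10 or more 18.03% and 14.13%. Which class had the largest excess thus depends on the measure. With the narrower peaks weighted to the density classes of the broad peaks the ratio was 1.41, and weighted to their pileup it was 1.49.

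Broad peaks gathered in parts of the genome, the outer parts of chromosomes among them. Of the 2159 windows of 1 Mb with a broad peak, 385 had 5 or more, and these held 2572 broad peaks (41.3%). These windows were defined by their broad peaks, and the share of narrower peaks in them was not taken. Whether broad peaks gather more than the whole list was thus not tested by this count. The median distance from a broad peak to the nearest other broad peak was 104255 bp, and 544 (8.72%) had another within 10 kb. The densest window, chr14:105000000-105999999, held 19 broad peaks among 383 peaks. The outer 5 Mb of chromosomes, a division made after the densest windows were seen, held 931 broad peaks, or 14.9% (14.1 to 15.8), beside 10.2% of the narrower peaks, a ratio of 1.47 (1.38 to 1.56). Within gene density classes this ratio was 1.63 (1.45 to 1.83), 1.38 (1.2 to 1.56) and 1.27 (1.17 to 1.38) in windows with under 5, 5 to 9 and 10 or more genes. The excess at gene ends did not rest on these parts: without them its ratio was 1.62.

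Gene starts under broad peaks were rich in CpG. Of 21119 RefSeq promoter windows (250 bases before to 50 after a start), 250 windows of 224 genes overlapped a broad peak, and 4150 overlapped narrower peaks only. The CpG ratio, the number of CG found over the number expected from the C and G content, had a median of 0.836 in the first set, 0.783 in the second and 0.725 in the 16719 windows without a KDM2A peak. Windows with a ratio of at least 0.6 made up 84.0% (78.9 to 88.3), 70.4% (69.0 to 71.8) and 60.4% (59.7 to 61.1). The order was thus broad, narrower, none, with intervals that did not meet. The 21119 windows belong to 15073 genes, and windows of 1 gene are not independent samples. The intervals over windows, here and by quintile, do not take this into account. The median window held 29 CG in the first set, 24 in the second and 20 in the third.

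Read the other way, from sequence to peak, the chance of a broad peak rose with the CpG ratio and then levelled off. Of the windows in the lowest quintile of CpG ratio 0.450% (0.271 to 0.702) overlapped a broad peak, and in the next quintile 0.734%. The upper 3 quintiles had 1.42% (1.09 to 1.83), 1.63% (1.27 to 2.06) and 1.68% (1.32 to 2.12), with intervals that overlapped. Windows with narrower peaks only went from 14.7% in the lowest to 22.1% in the highest quintile. Most CpG-rich windows thus had no broad peak, and the windows poorest in CpG had the fewest. The GC content moved in the same order, with medians of 67.8%, 65.0% and 61.7%. Its part in the result was not tested.

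**Figure D3:**
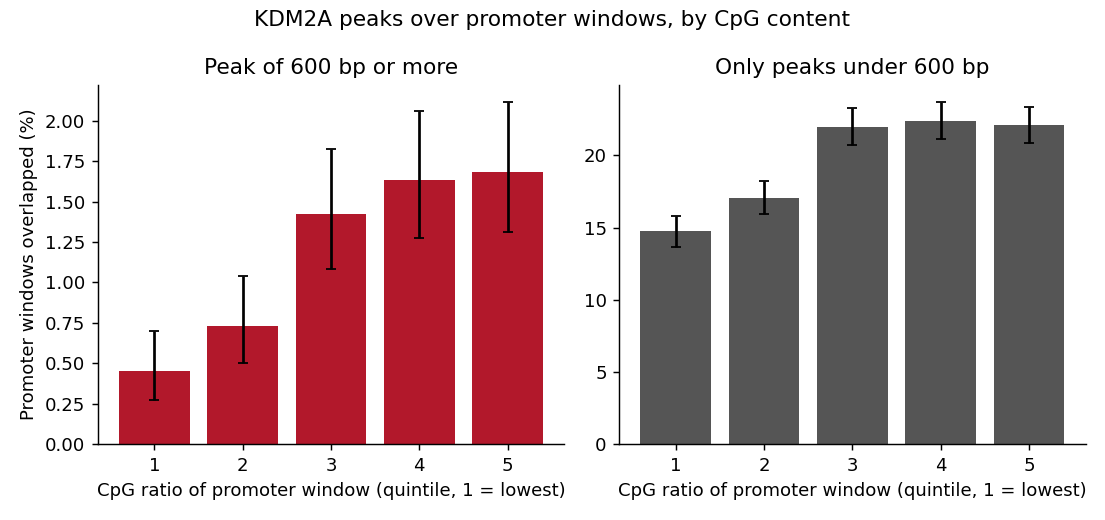
Percent of RefSeq promoter windows overlapped by a KDM2A peak of 600 bp or more (left) or by narrower peaks only (right), in quintiles of windows by CpG ratio (1 is the lowest), with 95% binomial intervals. Broad peaks go from 0.450% to 1.68% and narrower peaks from 14.7% to 22.1%, on different vertical scales.

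Some broad peaks counted in gene bodies also lay over starts, those of shorter transcripts within the gene. Of 2197 broad body peaks outside chromosome 8, 28, or 1.27% (0.848 to 1.84), overlapped a promoter window, beside 0.365% of the narrower body peaks. This counts overlap and not the midpoint, so a wider peak meets a window more easily. The part of width in this difference was not tested. The peak of 1446 bp in VSTM2B, chr19:29527672-29529117, is such a case: it held a whole promoter window of 300 bases with 27 CG and a CpG ratio of 0.834, inside the gene.

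Counting genes rather than peaks, 701 protein-coding genes had the midpoint of a broad peak within 2 kb of an end. By any overlap with the end windows, 776 of 18937 genes were hit, a background of 4.1%. Counting bodies as well, 2447 genes were hit, a background of 12.9%. Narrower peaks overlapped the end windows of 15804 genes, or 83.5%. Of the 776 genes, 662 also had a narrower peak at an end, not always the same end, a share near the 83.5% over all genes.

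The widest peaks at gene ends belonged to 12 genes of varied roles. FEV, an ETS-family transcription factor of serotonin neurons, had the widest, 1382 bp with a fold of 2.68 at chr2:218982668-218984049, centred 1826 bp inside the gene from its start. KLF14, a Krüppel-like zinc finger factor, had a peak of 1163 bp at chr7:130732900-130734062 with a fold of 3.99, a pileup of 14 and an FDR of 0.00326, centred 726 bp inside the gene. INSR, the insulin receptor, had 1133 bp at chr19:7293479-7294611 with a fold of 2.08, centred 369 bp inside. The midpoints of these 3 peaks all lay downstream of the start.

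ZSCAN18, ITGB1 and RNPEP, printed above, had their peak midpoints within 28, 284 and 65 bp of the start. COL24A1, a fibrillar collagen, had a peak of 1153 bp with a fold of 2.73, centred 1556 bp inside the gene. NTNG2, which encodes netrin-G2, a membrane-anchored protein of neurons, had a peak of 1138 bp with a fold of 2.49 at an end whose side is unknown. LY6E, a membrane-anchored protein of chromosome 8, had a peak of 1189 bp with a fold of 3.63 and an FDR of 0.0302. Only 2 of the 12 widest lay at the other end of a gene of known strand: CMPK2, a mitochondrial nucleotide kinase (1341 bp, fold 1.64), and ZNF75A, a zinc finger gene (1149 bp, fold 3.44). The peak at ZNF75A also overlapped OR2C1, an olfactory receptor gene that overlaps it, so 1 peak was counted for both genes. Among these 12 genes the FDR was under 0.05 at KLF14 and LY6E.

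Genes with a broad peak in the body were longer than genes in general. A longer gene has more room for a peak of any width. The lengths were not taken for genes with narrower peaks, and the part of length was not tested. The 2239 genes with a broad peak in the body had a median length of 85.3 kb, beside 24.9 kb over all genes, and the 135 genes with at least 3 had a median of 441 kb. CSMD2, a large transmembrane protein of neurons, had 14 over 652 kb, or 2.15 per 100 kb. RBFOX1, a neuronal splicing factor, had 9 over 2474 kb, or 0.364 per 100 kb. DPP6, a potassium channel partner, IQSEC1 and the synaptic scaffold SHANK2 had 8 each, at 0.698, 2.07 and 1.02 per 100 kb. Per length, CSMD2 and IQSEC1 were thus denser than RBFOX1. Among the widest body peaks, that of CYP26B1 lay 2481 bp inside the start at chr2:72144678-72146084 with a fold of 4.42 and an FDR of 0.00135. That of COBL, at chr7:51213546-51214971, had a fold of 4.15 and an FDR of 0.00120.

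Lists of genes by function were described by how many members had a broad peak overlapping an end, beside the 4.1% over all genes. The lists are small and their intervals wide. Of the peaks described from these lists, only that of HOXA3 had an FDR under 0.05. HOX genes, which set position along the body axis, had 4 of 39 (10.3%, interval 2.87 to 24.2): HOXA3, HOXB9, HOXC8 and HOXC10. HOXA3 had a peak of 775 bp with a fold of 4.06 and an FDR of 0.00626, 1460 bp inside its start at chr7:27150736-27151510. HOXC10, HOXC8 and HOXB9 had folds of 3.44, 2.59 and 2.58. The interval of the HOX share takes in 4.1%.

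Neural progenitor genes had 2 of 23 (8.70%), OTX2 and RAX, both homeobox factors of the early forebrain and eye. The OTX2 peak was 668 bp wide with a fold of 2.90, 1165 bp inside the start. Genes of neurogenesis and neuron differentiation had 2 of 35 (5.71%), among them ISL1, a transcription factor of motor neurons. The ISL1 peak was 627 bp wide with a fold of 3.19 and was centred 62 bp from the start. The intervals of both lists, 1.07 to 28.0 and 0.700 to 19.2, take in the background.

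Genes of axon guidance and the synapse had 1 of 30 at an end, SEMA6A, a transmembrane semaphorin, with a peak of 688 bp and a fold of 2.90. With bodies counted they had 15 of 30, beside 12.9% over all genes. Their median length was 549 kb, beside 24.9 kb over all genes, and the part of length in this count was not tested. Among them were LRRTM4 (954 bp), UNC5C (909 bp) and NTN1 (887 bp), the last encoding the guidance cue netrin-1.

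MAPK signalling, which the title of the study names, had 1 of 62 genes at an end (1.6%, interval 0.0408 to 8.66) and 6 of 62 (9.68%) with bodies counted. The 1 gene was HRAS, a RAS GTPase, with a peak of 822 bp and a fold of 2.98 at chr11:536296-537117, centred 1130 bp upstream of its start. In bodies, MAP2K3, a MAPK kinase, had a peak of 1017 bp with a fold of 2.56, MAP3K3 had 748 bp with 2.35, and RPS6KA2 had 745 bp with 3.34. The interval of the MAPK share takes in 4.1%, so a difference from genes in general was not detectable in either direction.

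Wnt, Notch and Hedgehog genes had 2 of 32 (6.25%), the Hedgehog ligand SHH and its signal transducer SMO. The SHH peak was 880 bp wide with a fold of 2.93 and was centred 2288 bp inside the start, and that of SMO was 858 bp wide with a fold of 2.60 and lay 893 bp past the other end. Ribosomal protein genes had 1 of 50, RPL34, with the peak 314 bp past its other end. Pluripotency genes had 2 of 19, PRDM14 and UTF1. Genes of blood, liver and muscle had 3 of 28 (10.7%), among them MYOD1, the muscle factor, with a fold of 2.54. The intervals of all 11 lists take in the background, and those of the blood, liver and muscle list (2.27 to 28.2) and of the neural progenitor list overlap.

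Among enzymes and readers of H3K36 methylation 1 of 21 had a broad peak at an end, PSIP1, which encodes the reader LEDGF. Its peak was 605 bp wide with a fold of 2.08, centred 4 bp from the start at chr9:15510672-15511276. With bodies counted the list had 7 of 21 (33.3%), beside 12.9% over all genes, and its median gene length was 110.8 kb, beside 24.9 kb. The part of length was not tested. The 7 include NSD2, an H3K36 methyltransferase, with a peak of 694 bp and a fold of 1.91, and KDM4A, a demethylase of H3K9 and H3K36, with 767 bp and a fold of 1.91. The FDR was 0.457 at PSIP1 and 0.630 at both NSD2 and KDM4A. KDM2A itself had no broad peak: the nearest lay 23745 bp upstream of its start. KDM2B, its paralogue, had 1 in its body of 636 bp with a fold of 2.93 at chr12:121455657-121456292. Among families picked later by symbol, ZNF-named genes had 37 of 505 at an end (7.33%, interval 5.21 to 9.96), olfactory receptors 13 of 375 (3.47%) and keratin genes 7 of 144 (4.86%). Genes of such families lie in clusters and share peaks. Clustered protocadherins, which share a stretch of exons, had 3 of 53 at an end and 34 of 53 with bodies counted, beside 12.9% over all genes. Their median length was 110 kb, and 1 peak counts for several genes there.

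H3K36me2 regions held few broad peaks in any library. By the midpoint, 251 broad peaks lay in a control region, 4.03% (3.55 to 4.54), beside 4.25% of the narrower peaks, a ratio of 0.948 (0.839 to 1.07). In sh1 there were 174, or 2.79% (2.40 to 3.23), beside 3.73%, a ratio of 0.747 (0.645 to 0.866). In sh4 there were 138, or 2.21% (1.86 to 2.61), beside 3.83%, a ratio of 0.577 (0.489 to 0.681). The control interval thus took in 1, and broad peaks had the lower share in both hairpin libraries. Counting peaks with a region within 5 kb of the midpoint, the control ratio was 0.869 (0.801 to 0.943), with 8.63% of the broad and 9.93% of the narrower peaks, so by that measure broad peaks had the lower share there too. The regions covered 98.3 Mb in NC, 91.3 Mb in sh1 and 109 Mb in sh4, so the library with the most coverage had the fewest broad peaks inside it.

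**Figure D4:**
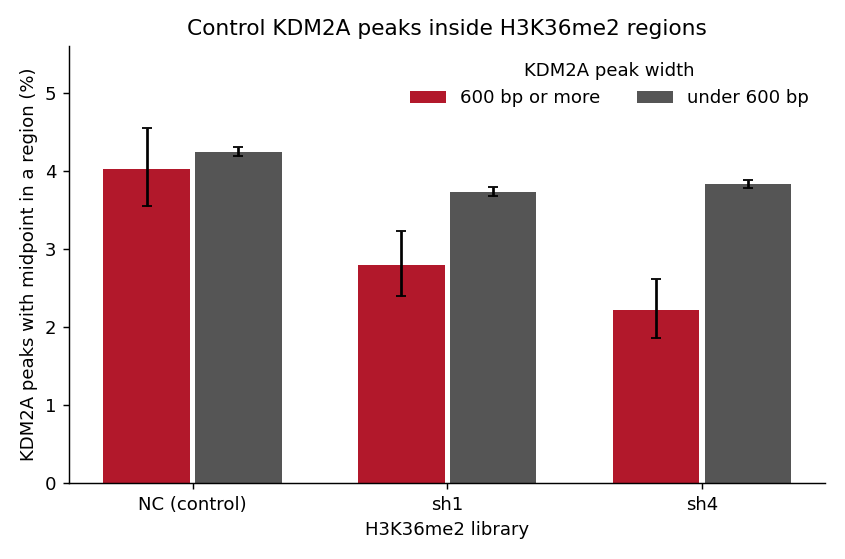
Percent of control KDM2A peaks whose midpoint lies inside an H3K36me2 region of the NC, sh1 or sh4 library, for peaks of 600 bp or more (red) and under 600 bp (grey), with 95% binomial intervals and 1 library per group. Red bars go from 4.03% to 2.79% and 2.21%, and grey bars from 4.25% to 3.73% and 3.83%.

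Set against the control, the number of broad peaks in regions was 0.693 times as large for sh1, with an interval of 0.571 to 0.841, and 0.550 times as large for sh4, with an interval of 0.447 to 0.677. For the narrower peaks these ratios were 0.880 and 0.903. The broad ratio over the narrower ratio was 0.788 (0.649 to 0.957) for sh1 and 0.609 (0.494 to 0.750) for sh4. Both hairpin libraries share the 1 control library, so they are not independent comparisons. Other ways of counting were tried only for the ratio of broad to narrower shares within each library, not for these ratios to the control. With broad peaks within 100 kb counted as 1 locus the ratio within sh1 was 0.886 (0.754 to 1.04). Without the windows of 5 or more broad peaks it was 0.934 (0.798 to 1.09), so both sh1 intervals took in 1. For sh4 these values were 0.713 (0.597 to 0.852) and 0.737 (0.619 to 0.876), below 1 in both. In NC they were higher too, 1.06 (0.920 to 1.21) and 1.12 (0.975 to 1.28), beside 0.948 over all peaks. Among peaks with an FDR under 0.05 the intervals for both hairpins took in 1, with ratios of 0.839 (0.512 to 1.37) and 0.541 (0.290 to 1.01). The NC ratio there was 0.787 (0.481 to 1.29).

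The broad peaks in regions were mostly different peaks in each library. Of the 6235, 5738 (92.0%) lay in a region of no library, 205 in NC only, 130 in sh1 only and 102 in sh4 only. Both NC and sh1 held 24, NC and sh4 16, sh1 and sh4 14, and all 3 libraries 6. Of the 251 peaks in control regions, 205 were thus in neither hairpin's regions, while 246 peaks were in a region of a hairpin library and not of the control. The narrower peaks were much the same, so this is not particular to broad peaks. Of 19813 narrower peaks in control regions, 16410 were in neither hairpin's regions, and 29908 others were in a hairpin's regions alone. In a region of no library lay 89.3% of the narrower peaks. The lists hold called regions, so a peak outside them can still carry H3K36me2 below the calling limit.

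By place, gene ends had the lowest shares. Of the 636 broad peaks at gene ends, 11 (1.73%) lay in control regions, 1 in sh1 regions and 0 in sh4 regions, which allows a share of up to 0.472% by the limit of 3 counts and up to 0.578% by the exact interval. The narrower peaks at gene ends had 1.66%, 1.1% and 0.945%. In gene bodies the broad peaks went from 4.52% (3.71 to 5.45) in NC to 2.61% in sh1 and 2.04% in sh4, and the narrower from 4.37% to 3.57% and 3.46%. Between genes they went from 4.12% (3.47 to 4.86) to 3.43% (2.83 to 4.10) and 2.76% (2.23 to 3.38), and the narrower from 4.46% to 4.18% and 4.47%. The lower counts in the hairpin libraries were thus found in all 3 places, but the intervals of NC and sh1 overlapped between genes and at gene ends (0.866 to 3.07 and 0.00398 to 0.873), where the counts were few. By gene density, the sh4 ratio of broad to narrower was 0.673 (0.547 to 0.828), 0.597 (0.439 to 0.813) and 0.480 (0.266 to 0.867) in windows of under 5, 5 to 9 and 10 or more genes, and every sh1 interval took in 1.

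The surroundings of the peaks moved as well. Positions 10 to 50 kb from a broad peak lay in control regions at 2.81%, beside 3.44% around narrower peaks, in sh1 at 2.24% and 2.96%, and in sh4 at 2.31% and 3.34%. The share at the peak itself was 1.43 times its surroundings in NC (1.26 to 1.62), 1.25 times for sh1 (1.07 to 1.44), and for sh4 0.959 times (0.807 to 1.13). Around narrower peaks these were 1.23, 1.26 and 1.15. Broad peaks were therefore in poorer surroundings in all 3 libraries, and the local rise at their centre seen in NC and sh1 was not seen in sh4. The median distance from a broad peak to the nearest region was 90456 bp in NC, 193348 bp in sh1 and 208716 bp in sh4, beside 67668, 106411 and 106448 bp for narrower peaks.

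**Figure D5:**
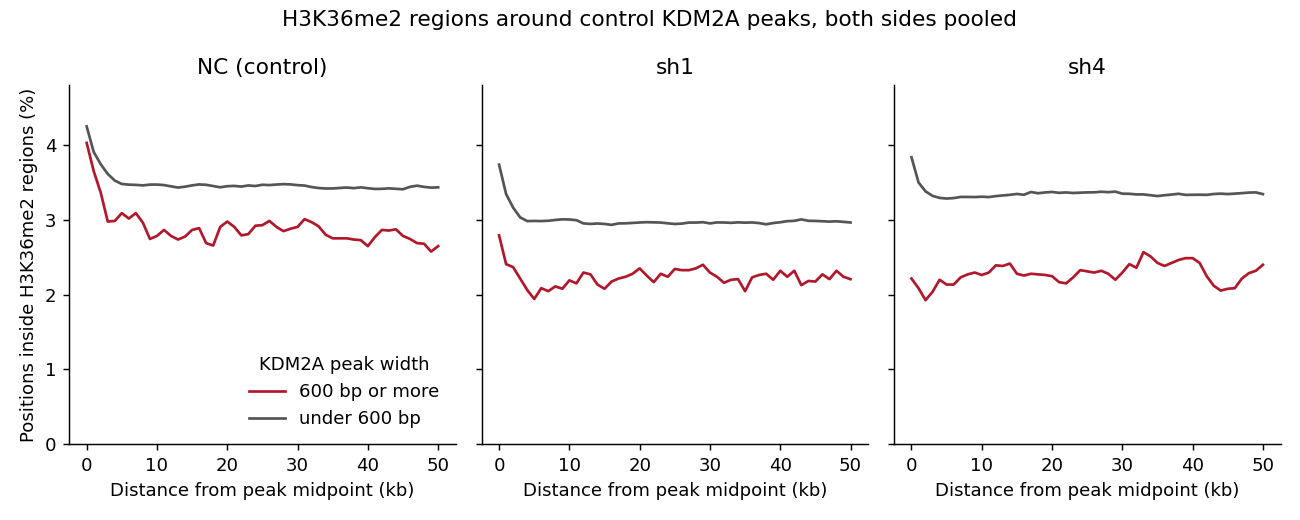
Percent of positions inside H3K36me2 regions (vertical axis) by distance in kb from the midpoint of control KDM2A peaks, both sides pooled, for peaks of 600 bp or more (red) and under 600 bp (grey) in the NC, sh1 and sh4 libraries. At 10 to 50 kb the red lines average 2.81%, 2.24% and 2.31% and the grey lines 3.44%, 2.96% and 3.34%. The red line of sh4 dips to 1.92% at 2 kb and stands at 2.21% at 0, not above its average at 10 to 50 kb.

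The widest broad peaks found in control regions only lay in or near 8 genes of varied roles. The widest, 1038 bp with a fold of 1.91, lay 237 bp inside the other end of MBP, which encodes myelin basic protein, at chr18:76978552-76979589. DOCK1, an exchange factor of the GTPase RAC, had a peak of 1004 bp with a fold of 3.15 at chr10:127055195-127056198. SHTN1, which encodes shootin 1, a protein of axon outgrowth, had a peak of 987 bp with a fold of 2.07, and NTN1 the peak of 887 bp with a fold of 2.79 at chr17:9075731-9076617. Each of these is 1 peak in 1 list, present in the control regions and in neither hairpin list. Others of this kind lay in PDE8B, TTC21A and ARHGEF4 and 494 bp upstream of GALNTL6. None of these 8 peaks had an FDR under 0.05, and it was 0.630 at MBP and SHTN1.

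Of the 6 peaks inside regions of all 3 libraries, the widest were a peak of 834 bp with a fold of 2.59, 42378 bp from FZD1, a Wnt receptor gene, at chr7:91313288-91314121, and a peak of 784 bp with a fold of 2.59 in the body of CDKAL1, at chr6:21031517-21032300. In TGFBR3, a co-receptor for TGF-beta, a peak of 828 bp with a fold of 2.71 lay in regions of NC and sh1. A peak of 1056 bp with a fold of 2.29, 110368 bp from NRXN3, lay in regions of sh1 and sh4 and not of the control. So did a peak of 761 bp whose nearest protein-coding gene, TENM3, was 1345679 bp away. Broad peaks in control regions were thus not all absent from the hairpin lists, and some broad peaks lay in hairpin regions alone. None of the peaks named in this paragraph had an FDR under 0.05.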

How the data were processed

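The submitters' processing notes name Bowtie 1.1.2, MACS2, SICER, hg38 and GRCh38, with no role given. In the authors' deposited KDM2A list each peak has a fold enrichment (a linear ratio), a pileup (a signal, the height of stacked fragments), a p-value and an FDR, and no FDR limit had been applied. The authors' deposited H3K36me2 lists give regions on a grid of 200 bp with a fold (ratio), a p-value, an FDR and a score. Their starts are counted from 0 and were raised by 1. All other columns were not used.

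From these, peaks were placed by midpoint at gene ends (2 kb to either side), in gene bodies or between genes, using 18937 protein-coding genes of RefSeq GRCh38.p14. Strand came from the RefSeq promoter table, and chromosome 8 was not used for values that need it. Each group holds 1 library, so shares are given with intervals and no tests. Python 3.11.15, numpy 2.4.6, pandas 2.3.3 and scipy 1.17.1 were used, and the placing code was tested on simulated peaks. The members and gene lists were chosen with earlier results of these data known. Named genes were the widest peaks at ends and in bodies, up to 4 per list, the highest folds, and the widest peaks in H3K36me2 regions of NC only or of at least 2 libraries. For VSTM2B, whose start lies inside the gene, no sequence is printed. Not all genes this rule names are reported here. Alternatives tried were 13 set at the start and 3 added after the data were seen (weights for gene density and for pileup, and leaving out the outer 5 Mb of chromosomes).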

Additional observations from a re-analysis of the deposited data

Results flagged for a closer look

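Broad KDM2A peaks also lay outside the chromosome parts described. There were 452 peaks of 600 bp or more there, and they entered no comparison. On chromosome X there were 338, or 1.25% of its 26960 peaks, with medians of 668 bp in width and 2.61 in fold, values like those of chromosomes 1 to 22. The left-out parts of chromosomes 4, 5, 11, 14 and 21 held 52, or 1.84% of 2821 peaks, with a pileup of up to 188, beside a highest pileup of 125 among the broad peaks described. Unplaced sequences held 62, or 3.10% of 2000, their median fold being 2.28 and their pileup reaching 162.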

How the results depend on the processing

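The ratio of broad to narrower peaks at gene ends stayed above 1 in all 13 alternatives (1.37 to 2.46), and the gene body ratio stayed between 0.882 and 0.934. The gene end ratio was 1.45, 1.98 and 2.46 with width limits of 500, 800 and 1000 bp, 1.83 and 1.37 with windows of 1 and 5 kb, 1.72 among peaks with an FDR under 0.05, and 1.41 with narrower peaks weighted to gene density. The intergenic ratio was 0.963 and 0.898 at 800 and 1000 bp and 1.04 with the density weights. For H3K36me2 in NC the ratio was 0.737 and 0.277 at 800 and 1000 bp, 0.787 at an FDR under 0.05 and 1.12 without windows of 5 or more broad peaks. Over 14 alternatives it lay on both sides of 1 in NC (0.277 to 1.12) and below 1 in sh1 (0.605 to 0.934) and sh4 (0.397 to 0.737). For sh1 it was 0.632 at 1000 bp, 0.886 with 1 peak per 100 kb locus, 0.934 without the dense windows and 0.605 with H3K36me2 regions at or above the control's median fold. For sh4 it was 0.691, 0.397 and 0.463 at 500, 800 and 1000 bp, 0.713 per locus, 0.737 without the dense windows and 0.477 with the higher regions. The cause of these moves was not tested, and at 1000 bp only 170 peaks were left. The 701 genes with a broad peak at an end became 1561, 152 and 30 at 500, 800 and 1000 bp. They became 77 at an FDR under 0.05 and 371 without the dense windows, which follows from counting fewer or more peaks. With windows of 1 and 5 kb they became 462 and 1301, which follows from the size of the windows. The main limits are 1 library per group, a KDM2A list without an FDR limit, unknown depth, and lists of called regions in place of signal. No paired analysis was possible because every group holds 1 library.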
